A study of Saccharomyces cerevisiae with 8 samples.

Results

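The regions described here are the Rap1 peaks in the interior of the nuclear chromosomes that lay mostly over coding sequence. A peak was a core peak when its midpoint lay over 50 kb from both chromosome ends, and a core peak was called coding when its summit fell inside a protein-coding gene or when at least 50% of its width was covered by such genes. The rule took 147 of the 1013 core peaks and of the 1240 peaks in all 4 lists. These 147 peaks were 5 of 56 core peaks in 16 h repeat 1, 57 of 406 in 16 h repeat 2, 21 of 77 in 14 d repeat 1 and 64 of 474 in 14 d repeat 2. Joined by overlap, they formed 79 regions.

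Rap1 ChIP-seq was done in budding yeast (Saccharomyces cerevisiae) grown in rich medium (YPD) for 16 h or 14 d, with 2 biological repeats per time and a matched input library for each, 8 libraries in all. Each ChIP library had 1 list of peaks, called by the authors against its input, and the inputs themselves were not analysed here. All libraries came from JDY86, the haploid MATa parent of a collection of histone H3 and H4 mutants, so the 2 times share every allele: 1 pair of H3 and H4 genes (hht1-hhf1) is replaced by NatMX4, the other (hht2-hhf2) is replaced by a synthetic H3-H4 cassette with URA3, can1 is replaced by MFA1pr-HIS3, and the strain carries ura3Δ0, trp1Δ63, met15Δ0, leu2Δ0, his3Δ200 and an allele written as K2Δ0. The ChIP used bulk cells, quiescent and non-quiescent together, so a change in their mixture and a change within the cells cannot be told apart.

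Rap1 is a sequence-specific DNA-binding protein that sits at telomeric repeats and silencers, where it recruits the Sir proteins, and in the promoters of ribosomal protein, glycolytic and translation factor genes, where it acts as an activator. Most of its known sites in the chromosome interior lie upstream of genes, in the stretches between coding sequences. The yeast genome is compact, so the upstream region of a gene often overlaps the end of a neighbouring gene or a short reading frame with no name of its own.

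The libraries differed in depth, and this bears on every value below. The background pileup across the genome, in fragments, was 0.414 and 8.87 in 16 h repeats 1 and 2 and 1.71 and 11.7 in 14 d repeats 1 and 2, and both repeat 2 lists were several times longer than the repeat 1 lists. The 5 coding core peaks of 16 h repeat 1 had a median summit pileup of 11 fragments, against 71 in 16 h repeat 2, 33 in 14 d repeat 1 and 147 in 14 d repeat 2. Each time therefore holds 1 shallow and 1 deep library.

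Of the 147 peaks, 118 met both parts of the rule, 16 met it by the summit alone and 13 by the covered width alone. The summit of 134 lay inside a gene. For core peaks with the summit outside genes, the width alone decided. Among these, the coding peak nearest to the limit covered genes over 51.0% of its length (at YOR268C, 14 d repeat 2). The nearest peak outside the limit covered them over 45.5% (at HAP5, 14 d repeat 2). Of the same peaks, 5 coding peaks lay within 10 points above the limit and 16 that the rule left out lay within 10 points below it.

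As a share of core peaks, coding peaks were 8.93% (exact 95% binomial interval 2.96 to 19.6) in 16 h repeat 1, 14.0% (10.8 to 17.8) in 16 h repeat 2, 27.3% (17.7 to 38.6) in 14 d repeat 1 and 13.5% (10.6 to 16.9) in 14 d repeat 2. Coding sequence makes up 74.6% of the core length. The share was 11.5% ± 3.61 at 16 h and 20.4% ± 9.74 at 14 d (SD, n = 2 per time), a difference of 8.90 points that was within the spread between repeats (two-sided exact permutation test, p = 0.667, where 0.333 is the smallest p that 2 against 2 allows). Within the shallow pair (repeat 1) the difference was 18.3 points, and within the deep pair (repeat 2) it was -0.537. The intervals cover counting error only. The log2 number of coding peaks differed by 1.12 (4.08 ± 2.48 against 5.20 ± 1.14, SD, n = 2, exact permutation p = 0.667), and without 16 h repeat 1 it was -0.64, with more peaks at 16 h.

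Around 50% of the coding peaks lay over reading frames without a name of their own, most of them short. The host gene, the gene with the summit or otherwise with the most covered width, was unnamed for 2 of 5, 29 of 57, 11 of 21 and 33 of 64 peaks in 16 h repeats 1 and 2 and 14 d repeats 1 and 2, or 40.0%, 50.9%, 52.4% and 51.6%. Unnamed genes are 11.2% of the 5318 protein-coding genes of the core and hold 8.59% of their coding length. The gene table does not mark doubtful reading frames or genes of Ty transposons. These cannot be told from other genes here, among unnamed or named hosts. The median host was 501, 447, 495 and 420 bp long in the 4 lists in that order, against core medians of 672 bp for unnamed and 1272 bp for named genes.

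Each host was counted against the same set of core genes. The 5318 core genes hosted a coding core peak in 0.094% of cases in 16 h repeat 1, 1.07% in 16 h repeat 2, 0.395% in 14 d repeat 1 and 1.2% in 14 d repeat 2, and 80 different genes (1.5%), 40 of them unnamed, were hosts in at least 1 list. The summit of a coding core peak lay within the 500 bp before the start codon of 2 of the core genes (0.0376%) in 16 h repeat 1, 33 (0.621%) in 16 h repeat 2, 9 (0.169%) in 14 d repeat 1 and 34 (0.639%) in 14 d repeat 2, and in at least 1 list it did so for 47 (0.884%). These 500 bp are called the promoter below.

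The 147 peaks fell into 3 kinds by host and promoter. The host was unnamed for 75 peaks, of which 39 had the summit in the promoter of a named gene. For 30 peaks the host was a named gene and the summit lay in the promoter of another gene. The remaining 42 peaks lay over a named gene and in no promoter of another gene. By region these were 39 regions with unnamed hosts, 16 over a named gene and a second gene's promoter, and 24 over a named gene alone.

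Within their hosts, summits were spread from start to stop codon, and those in named genes lay more often towards the stop codon. When each gene was cut into 3 equal lengths, 27 of the 134 summits inside genes lay in the stretch with the start codon, 52 in the middle and 55 in the stretch with the stop codon. In named hosts the counts were 13, 17 and 37 of 67, and in unnamed hosts 14, 35 and 18 of 67. The median relative position (0 at the start codon, 1 at the stop codon) was 0.686 in named hosts, which had a median length of 1014 bp, and 0.540 in unnamed hosts, with a median of 360 bp. Summits lay within 150 bp of the host's stop codon in 57 of the 134 peaks, and 34 of these were in unnamed hosts, most of which are short. Peaks that share a region are not independent, and these counts are a description.

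**Figure D1:**
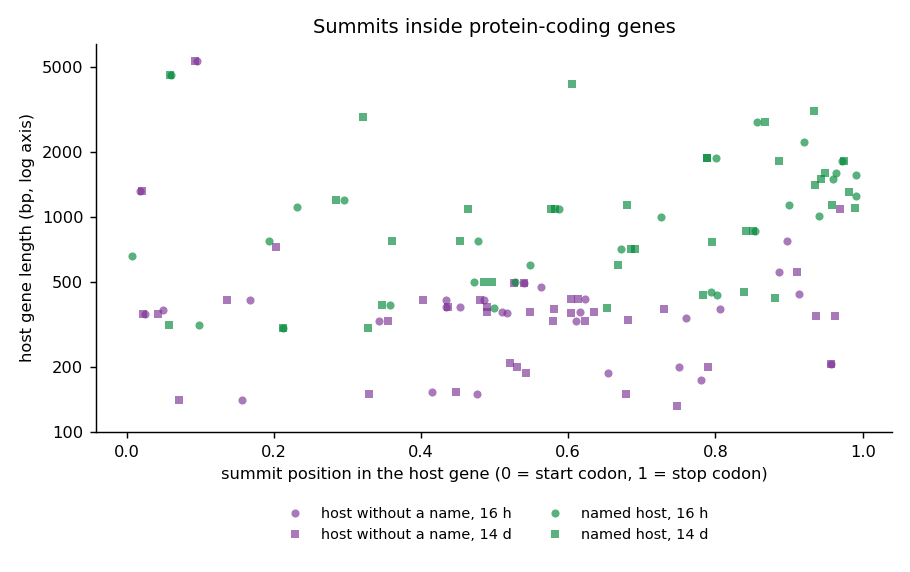
Position of each coding core peak summit inside its host gene (x axis, 0 at the start codon and 1 at the stop codon) against host length in bp (y axis, log scale). Each point is 1 of the 134 peaks with the summit inside a gene, circles for 16 h and squares for 14 d, purple for hosts without a name and green for named hosts. Named hosts over 1000 bp long gather at the right, near the stop codon, and unnamed hosts lie mostly below 500 bp.

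Over all coding core peaks, the position did not separate the times. The median relative position was 0.472 and 0.588 at 16 h and 0.549 and 0.623 at 14 d, with a mean of 0.530 ± 0.0817 against 0.586 ± 0.0523 (SD, n = 2). The 2 times overlapped, and the difference of 0.056 was within their spread (two-sided exact permutation test, p = 0.667). Without 16 h repeat 1 the difference was -0.0018.

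An unnamed host, YCL042W on chromosome III, upstream of GLK1 (glucokinase, the first step of glycolysis), held a coding peak in 3 lists, with summits 71, 57 and 78 bp before the GLK1 start codon in 16 h repeat 2, 14 d repeat 1 and 14 d repeat 2. Its fold enrichment, the summit pileup over the local background with 1 added to each, was 7.27, 11.1 and 31.8 in that order. The rise between the repeat 2 lists, 2.13 on the log2 scale, was the second largest among 51 coding regions present in both.

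The hosts of coding peaks in ribosomal protein gene promoters were named in 2 cases (FYV12 and IRC13) and unnamed in 3. Of the 129 ribosomal protein genes of the core, 109 had a core peak of any kind in the promoter in at least 1 list, and for 5 of them a coding peak was among these. RPS30B was reached through FYV12, with the summit 218 bp before its start codon in 16 h repeat 2 and 214 bp in 14 d repeat 2, where the fold was 16.6 and 23.1. RPL33B was reached through IRC13 (496 and 483 bp, fold 12.8 and 23.6 in those 2 lists) and RPL21B through YPL080C (250 and 254 bp, fold 15.5 and 15.8). RPL9B was reached through YNL067W-B at 242 and 254 bp. All 4 were coding peaks in both repeat 2 lists and in neither repeat 1 list.

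RPL31B, the fifth of these genes, lies next to YLR406C-A, a frame of 150 bp on chromosome XII (932206 to 932355). The peak at YLR406C-A had a fold of 41.6 in 16 h repeat 2, 6.28 in 14 d repeat 1 and 52.2 in 14 d repeat 2, the highest fold of any coding peak in the last list. Its summit lay 529, 499 and 551 bp before the RPL31B start codon, so that only the 14 d repeat 1 summit fell within the 500 bp used as promoter. RPL31B was counted in that list alone for this reason, although the 3 summits lay within 52 bp of each other.

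The other gene lists held few members, as did the core genes as a whole (0.884% in at least 1 list), so lists of this size give counts near 0 in any case. Of 10 core genes for translation elongation, HYP2 (the translation factor eIF5A) had a coding peak summit in its promoter in all 4 lists. Of 20 glycolysis and fermentation genes there were 2, GLK1 and ENO2 (enolase), and ENO2 was reached only in 16 h repeat 2, 431 bp upstream at a fold of 3.65. There was 1 of 29 stress and stationary phase genes (TSL1, a trehalose synthase subunit), 1 of 16 respiration and gluconeogenesis genes (CIT2, the peroxisomal citrate synthase) and 1 of 14 cell wall genes (CWP2, a cell wall mannoprotein). The counts for hexose transporters (0 of 11), histones (0 of 10) and Rap1 partners or silencing proteins (0 of 11) cannot be told from that background. As hosts, these lists gave HHO1 and SIR3.

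Where the host was a named gene and the summit lay in another gene's promoter, 14 of 30 summits were inside the host within 150 bp of its stop codon, 13 were farther inside and 3 lay outside it. By region, at the peak of highest rank, these were 9, 6 and 1 of 16, and UTR5 was among the 6. The 3 examples that follow, all near the stop codon, were chosen after their values were seen. In SPT3 (a subunit of the SAGA coactivator) the 16 h repeat 1 summit was 60 bp before the stop codon and 252 bp before the start codon of SHE9, and the peak was weak, with a fold of 4.95 and a pileup of 6 fragments. In PAC11 (a dynein chain) the summits were 57 and 81 bp before the stop codon in 16 h and 14 d repeat 2, which is 265 and 289 bp before RIB3, a riboflavin synthesis gene. In TAG1 they were 52 and 47 bp before the stop codon in the same 2 lists, 396 and 391 bp before IDP2, a cytosolic isocitrate dehydrogenase.

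A further 26 peaks, in 18 regions, had the summit over 500 bp from every start codon, and 25 of them lay over named genes. They were 0 of 5, 9 of 57, 5 of 21 and 12 of 64 peaks in 16 h repeats 1 and 2 and 14 d repeats 1 and 2. The strongest was at PUT4, the proline permease (chromosome XV, 986899 to 988782). PUT4 had a fold of 18.2 in 16 h repeat 2, 20.3 in 14 d repeat 1 and 39.4 in 14 d repeat 2, and no peak in 16 h repeat 1. The summits lay 376, 398 and 397 bp before the PUT4 stop codon and 813, 835 and 834 bp before the start codon of PYK2, a pyruvate kinase.

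RRN5, which encodes a subunit of the RNA polymerase I upstream activation factor (chromosome XII, 423683 to 424774), had the same pattern. Its fold was 21.6, 17.3 and 28.6 in 16 h repeat 2, 14 d repeat 1 and 14 d repeat 2, with summits 641, 635 and 629 bp after its own start codon, in the middle of the gene. The nearest start codon of another gene, that of SLS1, lay 839 to 851 bp from the summits. RRN5 and PUT4 were thus each marked by 3 summits within 12 and 22 bp of each other, far from any start codon.

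Weaker peaks of this type lay in NAT4, CDC13 and CAR1. NAT4, an acetyltransferase for histones H4 and H2A, had a fold of 7.21, 7.60 and 8.52 in 16 h repeat 2, 14 d repeat 1 and 14 d repeat 2. CDC13, which encodes the protein that binds single-stranded telomere ends, had a fold of 5.68 in 16 h repeat 2 and 6.36 in 14 d repeat 2. CAR1 (arginase) had a coding peak in 16 h repeat 2 alone, at a fold of 4.86.

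Across the 79 regions, coding peaks were in 1 list for 33 regions, in 2 lists for 28, in 3 for 14 and in all 4 for 4. Counting any peak over the region, 52 regions were in at least 2 lists and 51 in both repeat 2 lists. The 27 regions found in 1 list came from 16 h repeat 2 (9), 14 d repeat 1 (1) and 14 d repeat 2 (17), and their median fold rank percentile was 17.3 (3.01 to 55.9), against 51.1 (2.50 to 92.6) for the 52 others. The fold rank percentile is the place of a peak by fold within its own list of nuclear peaks, with 100 the highest. Regions found once therefore stood mostly in the lower part of their lists.

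Recurrence was tested against the other core peaks of the same list. A peak of another list overlapped 5 of 5, 48 of 57, 20 of 21 and 47 of 64 coding peaks (100%, 84.2%, 95.2% and 73.4%), against 51 of 51, 317 of 349, 56 of 56 and 318 of 410 other core peaks (100%, 90.8%, 100% and 77.6%). The differences were 0, -6.62, -4.76 and -4.12 points, with a mean of -3.88, lower in 3 of 4 lists (two-sided exact sign-flip permutation test over the 4 libraries, p = 0.25, where 0.125 is the smallest p it allows). Among the 56 core peaks of highest fold in each list, overlap was counted only against the 56 of the other lists. By this narrower measure the difference turned to 12.96 points. There coding peaks were higher in all 4 lists (exact sign-flip p = 0.125, the smallest possible). Over all core peaks the difference turned to 1.64 without 16 h repeat 2 and to 1.46 without 14 d repeat 2. The list left out was then not used for matching either, so recurrence in the remaining lists was recounted without it. The 14 d repeat 1 exception was SIR3, a silencing protein, where the only peak had a fold of 4.06 and a pileup of 10 fragments and ranked 92 of 95.

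Coding peaks were found across the whole range of fold in each list. The median percentile of coding peaks was 59.5, 40.4, 55.8 and 49.6 in 16 h repeats 1 and 2 and 14 d repeats 1 and 2, and that of the other core peaks was 36.9, 50.9, 39.5 and 49.6. Coding peaks ranked higher in the 2 shallow lists by 22.6 and 16.3, lower by 10.5 in 16 h repeat 2 and level in 14 d repeat 2, so the mean difference of 7.10 was within the spread between libraries (two-sided exact sign-flip permutation test, p = 0.5). Their percentiles ran from 17.9 to 70.2, 0.833 to 97.7, 4.21 to 97.9 and 3.01 to 98.0. Between the times the median percentile was 49.97 ± 13.5 at 16 h and 52.7 ± 4.41 at 14 d (SD, n = 2), a difference of 2.70 (exact permutation p = 1). It was -3.73 in repeat 1 and 9.14 in repeat 2, and turned to -6.85 without 16 h repeat 2 and to -0.41 without 14 d repeat 1.

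**Figure D2:**
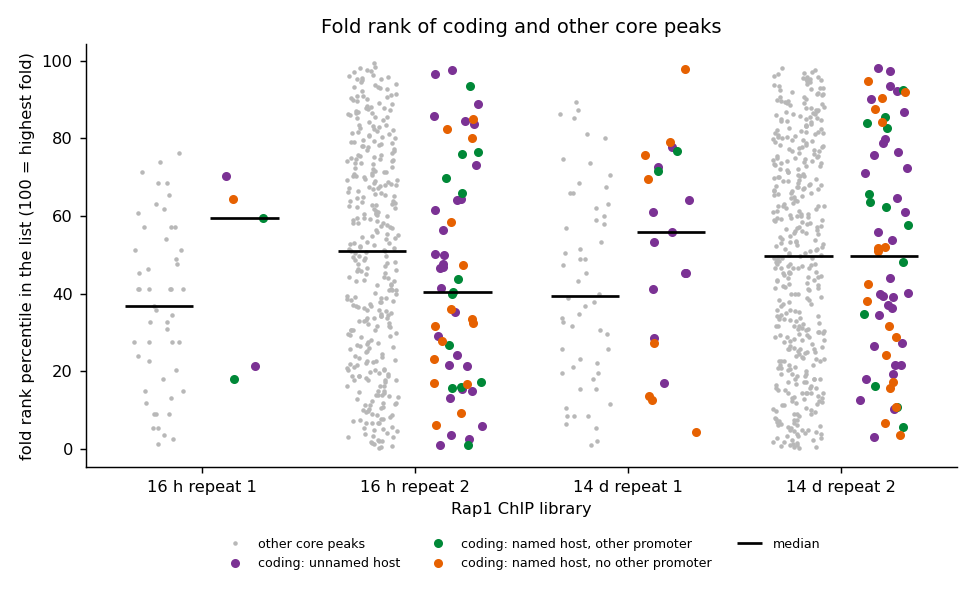
Fold rank percentile (y axis, 100 is the highest fold in the list) of coding core peaks, coloured by kind of host, beside all other core peaks (grey) in each of the 4 Rap1 ChIP libraries (x axis). Each point is a peak and each black line a median, which for coding peaks is 59.5, 40.4, 55.8 and 49.6 from left to right. Coding peaks reach from the bottom to the top of both deep lists, and the shallowest list holds 5 of them.

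The median fold of coding peaks was 7.86, 6.35, 12.6 and 7.99 in the 4 lists, against 6.28, 8.11, 9.54 and 7.91 for other core peaks. In the 10% of nuclear peaks with the highest fold there were 0, 3, 1 and 9 coding peaks, and in the lowest 25% there were 2, 19, 4 and 16. Coding peaks had a median width of 267, 316, 429 and 478.5 bp and other core peaks of 249, 334, 377.5 and 454 bp. The mean difference of 19 bp was within the spread between libraries (two-sided exact sign-flip permutation test, p = 0.375), with coding peaks wider in 3 of 4 lists.

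The share of coding peaks with the summit in the promoter of any gene was 40.0%, 54.4%, 42.9% and 51.6% in 16 h repeats 1 and 2 and 14 d repeats 1 and 2. For other core peaks it was 76.5%, 77.9%, 66.1% and 73.2%, a gap that the choice of peaks over genes sets in part and that was not tested. The mean of coding peaks was 47.2% ± 10.2 at 16 h and 47.2% ± 6.16 at 14 d (SD, n = 2). The difference was 0.0168 points (exact permutation p = 1) with 2.86 points in repeat 1 and -2.82 in repeat 2. With named genes alone it was -28.3 points, without 16 h repeat 1 -7.18 and without 14 d repeat 2 -4.34. In 16 h repeat 1 only 3 coding peaks had a named host, so a share among them moves in large steps. A tRNA gene lay within 500 bp of 1 of 64 coding peaks (1.56%) in 14 d repeat 2, against 11 of 410 other core peaks (2.68%), and of 0 of 57 in 16 h repeat 2, against 3 of 349 (0.860%).

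The regions with coding peaks in 3 or 4 lists were 18. Their summits repeated closely: the spread between the lists was 21.5 bp at the median, and 17 of the 18 regions spread over 7 to 82 bp. HHO1 was the exception, at 220 bp.

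**Figure D3:**
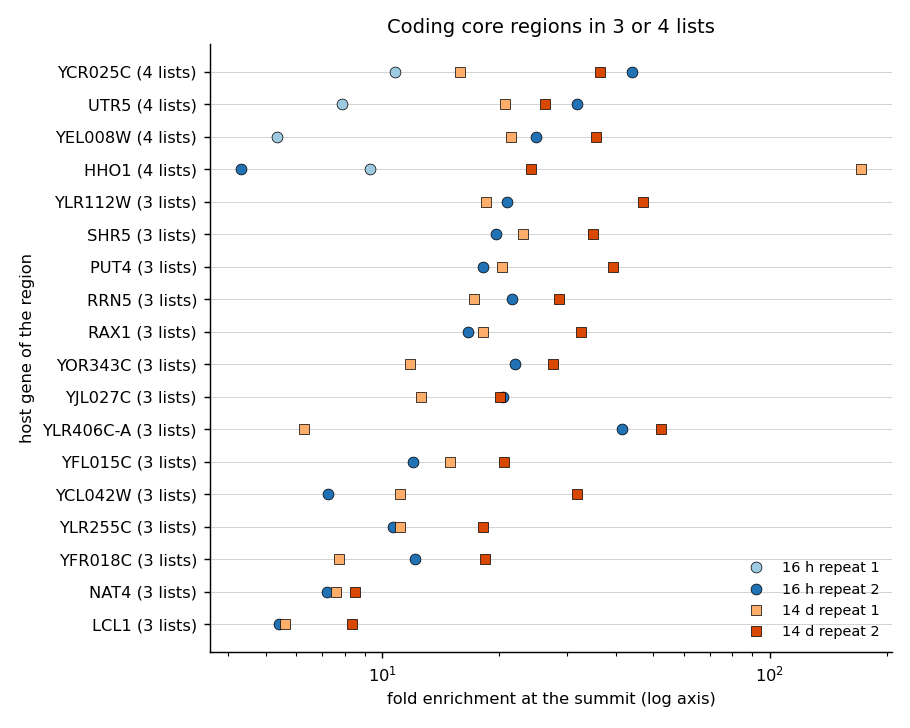
Fold enrichment at the summit (x axis, log scale) of the 18 regions with coding core peaks in 3 or 4 lists, named by host gene (y axis). Circles are 16 h and squares 14 d libraries, with a missing symbol where the list holds no peak. The HHO1 value of 172 in 14 d repeat 1 stands apart from the other symbols in its own row (4.31 to 24.2) and from all other regions.

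YCR025C, an unnamed frame of 411 bp on chromosome III (163446 to 163856), carried the strongest coding peak of both 16 h lists. Its fold was 10.8 and 44.0 at 16 h and 15.9 and 36.5 at 14 d, so the times overlapped. Its summits lay 165 to 199 bp after the YCR025C start codon and 590 to 624 bp before that of PMP1, a small protein of the plasma membrane proton pump. The log2 enrichment, the log2 of the pileup over the genome background, was 5.95 ± 0.219 at 16 h and 5.05 ± 0.610 at 14 d (SD, n = 2). It was lower at 14 d in both repeats, by -1.17 and -0.62 (two-sided exact permutation test, p = 0.333, the smallest possible), while the percentile overlapped between times.

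UTR5 (chromosome V, 85045 to 85545) held the peak in the HYP2 promoter. Its fold was 7.86 and 31.8 at 16 h and 20.8 and 26.3 at 14 d, and the times overlapped. The 4 summits lay 367 to 395 bp before the HYP2 start codon. The percentile was 76.5 ± 24.1 at 16 h and 81.2 ± 6.22 at 14 d (SD, n = 2, exact permutation p = 1).

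YEL008W (chromosome V, 140512 to 140892) lies upstream of GCN4, the activator of amino acid synthesis genes, at 914 to 935 bp. Its fold was 5.36 and 24.9 at 16 h and 21.4 and 35.5 at 14 d. The fold and percentile overlapped between the times, with a percentile of 55.2 ± 47.8 at 16 h and 85.0 ± 10.1 at 14 d (SD, n = 2, exact permutation p = 0.667).

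Besides PUT4 and RRN5, these 4 of the named regions were in every list but 16 h repeat 1. SHR5, a subunit of the palmitoyltransferase that modifies Ras, had a fold of 19.6, 23.1 and 35.0 in 16 h repeat 2, 14 d repeat 1 and 14 d repeat 2, with summits 221 to 234 bp before its stop codon. RAX1, a bud site selection gene, had 16.7, 18.2 and 32.6. Its 14 d repeat 2 summit lay 24 bp before the stop codon and the other 2 lay 28 and 33 bp beyond it, so it was a member by width alone in those lists. YOR343C had 22.0, 11.8 and 27.6. YLR112W had a fold of 21.0 in 16 h repeat 2 and 47.0 in 14 d repeat 2, with summits 4 and 8 bp before its start codon, and in 14 d repeat 1 the summit of that region was assigned to the neighbouring YLR111W. From 16 h to 14 d repeat 2, 1 library per time, the log2 enrichment of SHR5 differed by 0.26, of RAX1 by 0.78, of YLR112W by 0.57 and of YOR343C by -0.50.

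HHO1, which encodes the yeast linker histone H1, was the coding region with the clearest rise in fold and percentile at 14 d. It lies on chromosome XVI (308828 to 309604, minus strand). Its fold was 9.30 and 4.31 in 16 h repeats 1 and 2 and 172 and 24.2 in 14 d repeats 1 and 2. The summit pileup was 23 and 43 fragments at 16 h and 465 and 307 at 14 d. HHO1 ranked 31 of 84 and 370 of 480 peaks by fold at 16 h and 3 of 95 and 90 of 564 at 14 d. Both 14 d values stood above both 16 h values in fold and in fold rank percentile. They did so in raw pileup too, which is not comparable between libraries of unlike depth. By rank number they did not, since 31 of 84 came before 90 of 564, and the percentile depends on the length of the list.

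The percentile of HHO1 was 43.7 ± 29.1 at 16 h and 91.0 ± 9.73 at 14 d (SD, n = 2), higher by 47.3 (two-sided exact permutation test, p = 0.333, the smallest that 2 against 2 allows). Of the 29 core regions in all 4 lists, 3 (10.3%) were higher in both 14 d lists than in both 16 h lists. HHO1 was the only coding region among them. The other 2, on chromosome XII nearest to TAR1 and YLR154C-G, had larger percentile differences of 51.5 and 49.2. With 2 lists per time, some regions take this order without any difference between times. Its log2 fold rose by 4.21 in repeat 1 and 2.49 in repeat 2, the largest rise of the 29 regions in each repeat. On the log2 enrichment scale, which sets the pileup against the depth of the library, HHO1 was at 5.79 and 2.28 at 16 h and 8.09 and 4.71 at 14 d, so the times overlapped. Within repeats it rose by 2.30 and 2.43, which was the third largest rise of the 29 regions in repeat 1 and the largest in repeat 2. The mean rise was 2.36 (4.04 ± 2.49 against 6.40 ± 2.39, SD, n = 2, exact permutation p = 0.667).

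The HHO1 peak had the outline of the reading frame. The reads and inputs at this gene were not examined, and the source of this outline was not tested. At 14 d it reached from 8 bp (repeat 1) and 5 bp (repeat 2) inside the stop codon end of the gene to 14 and 11 bp beyond the start codon end, and covered 99.0% and 99.4% of the gene. At 16 h it ended 57 and 103 bp inside the stop codon end and 5 and 36 bp inside the start codon end, and covered 92.0% and 82.1%. Its summits lay 370, 150, 352 and 280 bp after the start codon in the 4 lists. HHO1 was the only host covered over at least 80% of its length, by a peak with at least 80% of its own width inside it, in all 4 lists. In total 22 coding peaks did so (2, 10, 5 and 5 in the 4 lists), and apart from HHO1 and the 14 d repeat 2 peak at PUT4 their hosts were at most 501 bp long, near the width of a peak.

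**Figure D4:**
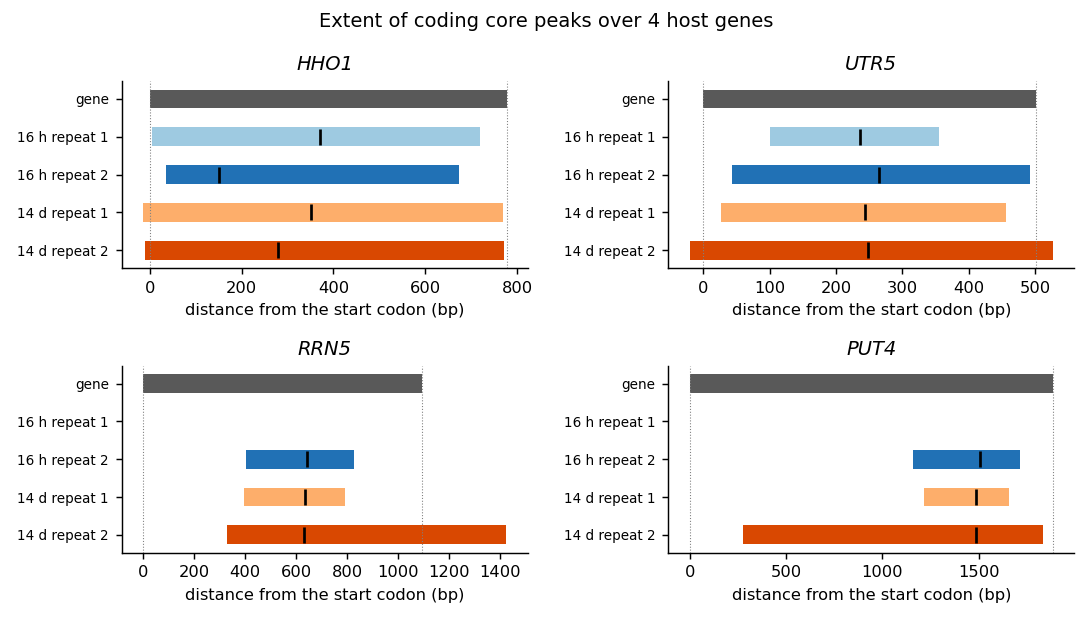
Extent of coding core peaks (coloured bars) relative to the host gene (grey bar, start codon at 0) in the 4 lists, with black ticks at the summits. The x axis is the distance from the start codon in bp, and an empty row means no coding peak in that list. The HHO1 peaks fill the gene and end within 103 bp of both gene ends in all lists. The RRN5 and PUT4 summits sit at 1 place inside longer genes, but their peaks can be long. The PUT4 peak of 14 d repeat 2 covers 82.5% of its gene, and the RRN5 region runs past the stop codon end.

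GTO3, a glutathione transferase, was the one region found in both 14 d lists and in neither 16 h list. Its fold was 5.43 in 14 d repeat 1, where the summit lay 12 bp before the stop codon, and 4.63 in 14 d repeat 2, where the peak was not a coding peak. Its percentiles were 12.6 and 29.8, in the lower part of both lists. No region was found in both 16 h lists and in neither 14 d list.

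In total 9 regions were in 16 h lists alone and 19 in 14 d lists alone. All but GTO3 and the SIR3 region were in a single repeat 2 list. The 14 d group included 4 peaks between 481918 and 489503 on chromosome XII, at YLR157C-C, ASP3-3, YLR159W and YLR161W, with folds of 9.59, 2.91, 5.75 and 5.36. They lie in a stretch with near-identical gene copies, so the place of their reads is uncertain.

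The 51 coding regions present in both deep lists allow a comparison of fold at more similar depth. The log2 ratio of 14 d over 16 h in repeat 2 was 0.47 at the median (-1.01 to 2.49) and above 0 in 38 of 51 regions (74.5%). For the 312 other core regions it was 0.29, and above 0 in 218 (69.9%). On the log2 enrichment scale the medians were 0.14 and 0.16, closer to 0 than the medians of fold, and with the coding regions no longer above the others. HHO1 had the highest ratio, YCL042W the second, and PDR15, a multidrug transporter, the lowest at -1.01, with a fold of 9.83 at 16 h and 4.87 at 14 d. This is 1 library per time, so no test was made.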

How the data were processed

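The authors trimmed paired-end reads (Trim Galore), aligned them to the S. cerevisiae genome, release 64 (R64), with Bowtie2, and used MACS2 with each library's own input for narrow peaks. Versions and settings are not given in the sources used here. In 14 d repeat 2 the peak names contain the word merge. What was merged is not given in the sources used here. The 14 d means, SDs and tests treat this list as an independent repeat, which could not be checked. Each deposited list has 10 columns and no header. It gives the position and summit of each peak with the fold enrichment (a ratio), the −log10 p, the −log10 q and a score (10 times the −log10 q), as deposited by the authors. Lists without replicated counts cannot give a count model, so 1 value per library was tested.

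Genes came from the RefSeq table of R64, with strand read from systematic names, and chromosome ends were set to the furthest gene or peak. Summit pileups and local backgrounds were solved from fold and −log10 p as a Poisson tail (relative tolerance 0.0001), which worked for 100% of peaks and assumes that ChIP pileups were not scaled, and the lowest background of a list is its genome background. Peaks of different lists were joined when they overlapped by at least 1 bp. Times were compared with two-sided exact permutation tests, and coding with other core peaks with exact sign-flip permutation tests over the 4 libraries. The 8 tests could not reach 0.05, and no adjustment was made. Named were the 10 regions in most lists, regions in both lists of 1 time alone, the highest fold per list, up to 5 strong regions within 250 bp after a start codon and 5 over 500 bp from every start codon, and genes of fixed lists. The members, lists and tests were chosen with earlier results of these data known. The motif search was not run, and sequence was not used here. The scripts, tested on simulated data, ran on python 3.11.15, numpy 2.4.6, pandas 2.3.3 and scipy 1.17.1.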

Additional observations from a re-analysis of the deposited data

How the results depend on the processing

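All 8 comparisons were recomputed under other settings on all 4 libraries, and 58 of 66 values kept their direction. The 66 include the values with repeats as a block, which equal the main ones by construction and could not turn. Values with 1 library left out are not in this count. None could pass a threshold, since the smallest p was 0.333 or 0.125. The difference in promoter share between times turned with the summit rule alone (-4.31 points), the width rule alone (-2.71), both rules together (-8.44), named genes only (-28.3) and a promoter of 1000 bp (-1.81). The difference in fold rank between times turned with core peaks beyond 20 kb (-1.25) and with the 56 core peaks of highest fold (-1.79), and in the latter setting recurrence turned to 12.96 points. Overlap was there counted only against the 56 highest peaks of the other lists. The cause of these turns was not tested. With these 56 peaks per list, 3 differences between times reached the smallest p (exact permutation p = 0.333). They were the coding share (14.3 points), the log2 number (1.21) and the position (0.073). Recurrence and width (114 bp) against other core peaks also reached it (exact sign-flip p = 0.125). Leaving out 1 library at a time gave -0.64 to 2.87 for the log2 number, 2.02 to 15.8 points for the coding share, 1.93 to 12.98 for rank against other core peaks, -6.85 to 12.3 for rank between times, -5.09 to 1.64 points for recurrence, -7.18 to 7.21 points for promoter share, -0.0018 to 0.114 for position and 8.17 to 31.3 bp for width. For recurrence, the library left out was also dropped from the lists that peaks were matched to. A lone library at 1 time is a value with no test. With repeats as a block, the differences equal the unpaired ones (log2 number 1.12, coding share 8.90 points, rank 2.70, promoter share 0.0168 points, position 0.056) with a smallest p of 0.5. Deviations of the repeats correlated across the 29 regions in all 4 lists (r = 0.549), and with 2 pairs this does not establish that equal numbers pair the samples. An alternative measure chosen after seeing the data, fold in place of rank, gave 4 of 29 regions higher in both 14 d lists, log2 enrichment gave 4 without HHO1, and the −log10 q rank gave 2 with it. The shallow 16 h repeat 1 library, with 5 coding peaks, limits each value at 16 h. The planned motif search was not run.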
